A study of Fundulus heteroclitus with 20 samples.

Results

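The ligands of the epidermal growth factor (EGF) family and their ErbB receptors were examined in the injured midbrain/diencephalon of the mummichog, a killifish. In the deposited count table, 12 of 13679 genes belonged to this family. They were chosen by their descriptions, which name heparin-binding EGF, betacellulin, transforming growth factor alpha, a neuregulin or an erbB receptor. They comprised 3 EGF-type ligands, 4 neuregulins and 5 receptors. The family was put forward because 1 of its genes, LOC105928246, was known from these same libraries to be higher in the lesioned hemisphere. That difference is therefore given below as a description without a test, whereas the other 11 genes entered by description alone.

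RNA-seq libraries were made from adult fish anesthetized with 2-phenoxyethanol. The lesioned group held the hemisphere of the midbrain/diencephalon into which a needle had been pushed, taken at 1 h post-lesion (n = 10). The intact group held the contralateral hemisphere of the same 10 fish, so its animals had also been anesthetized and injured. No uninjured fish is among these libraries. In the sample labels every lesioned hemisphere is a right one and every intact hemisphere a left one, whereas the study's methods divide each group equally between the sides, so that by the labels side and lesion cannot be told apart.

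EGF-family ligands are mostly made as membrane proteins whose outer part is cut off by metalloproteinases, and the freed part binds ErbB receptors on the same or neighbouring cells. The receptors pair up, phosphorylate each other and switch on the Ras, Raf, MEK and ERK kinases. That cascade in turn raises transcripts of its own inhibitors. HB-EGF (heparin-binding EGF-like growth factor) binds the EGF receptor and ErbB4, and in the injured zebrafish retina it is known as an early signal of Müller glia. Neuregulins bind ErbB3 and ErbB4 and are best known in the nervous system for their part in glial development, myelination and synapses. No description ended in epidermal growth factor receptor or named pro-epidermal growth factor, epiregulin or amphiregulin. Other wordings, such as a receptor described with -like at the end, were not searched for. These genes were not analysed here, and their absence is not shown.

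Between 9213580 and 11070103 counts per library fell on the listed genes. The study reports several times as many uniquely mapped reads per sample, so these totals are not the sequencing depth. The reason for the gap was not tested. Levels are given as counts-per-million values (CPM) after TMM scaling. The intact library of fish 3 stood apart on the first principal component, at 41.1 against -22.4 to 18.0 for the other 19 libraries. Of 47 markers, 18 were found. The hemoglobin subunit genes among the 47 were taken by description from the counted genes, so they were bound to be found. All others were listed by symbol. Of 6 neuron markers only slc17a6, the vesicular glutamate transporter of excitatory neurons, was found. Its median was 520.2 CPM in lesioned and 501.9 CPM in intact hemispheres. Of 6 radial glia and astroglia markers only the glial glutamate transporter slc1a2 was found, with medians of 4843 and 4884 CPM in lesioned and intact hemispheres. The summed oligodendrocyte markers mbp and cnp had medians of 335 CPM in lesioned and 390.4 CPM in intact hemispheres. For the endothelium markers found these medians were 491.1 and 499.7 CPM, and for the erythrocyte markers found 9.13 and 6.59 CPM. The 3 microglia and macrophage markers found of 6 listed were csf1r, gpr34 and spi1. They summed to 45.2 to 64.6 CPM (median 55.6) in lesioned and 43.9 to 91.3 CPM (median 71.7) in intact hemispheres. Of the 15 marker genes tested gpr34 alone was called (edgeR adjusted p of 0.1 or less), as lower in lesioned hemispheres. Over all genes tested 1.38% were called. The markers csf1r and spi1 were not called, so nothing is read about microglia from this call. The summed skeletal muscle markers had 14.4 to 116 CPM in lesioned and 12.0 to 24.6 CPM in intact hemispheres, the highest value being that of the lesioned hemisphere of fish 5. The skin epithelium marker epcam had 0.207 to 24.5 CPM in lesioned and 0.192 to 53.1 CPM in intact hemispheres. As these are bulk samples, fewer cells of a type and less RNA per cell cannot be told apart. The part of other tissues in the values below was not tested.

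LOC105928246 encodes the proheparin-binding EGF-like growth factor of the mummichog, and a newer RefSeq annotation names the same gene ID hbegfa. It is the gene for which the family was put forward, so nothing is read from its place among the members. Its level was lowest at 35.7 CPM, with a median of 53.2 and a highest value of 86.9 CPM, in lesioned hemispheres, against 16.2, 25.6 and 44.9 CPM in intact hemispheres. The groups overlapped slightly, since 7 of 10 lesioned hemispheres lay above every intact one and 9 of 10 intact hemispheres lay below every lesioned one. The overlap came from the intact hemisphere of fish 5, at 44.9 CPM, and from the lesioned hemispheres of fish 2, 8 and 10, at 37.4, 44.8 and 35.7 CPM.

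Within each fish the lesioned hemisphere held more HB-EGF transcript than the intact one, in 10 of 10 fish. Mean levels were 56.0 ± 16.3 CPM in lesioned and 26.5 ± 8.09 CPM in intact hemispheres (SD, n = 10 each). The edgeR fit with fish as a block gave a log2 fold change of 1.08 with a standard error of 0.09, which is 2.12-fold with a 95% interval of 1.85 to 2.42. By log2 fold change LOC105928246 ranked 27th from the highest of the 10513 genes tested.

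**Figure D1:**
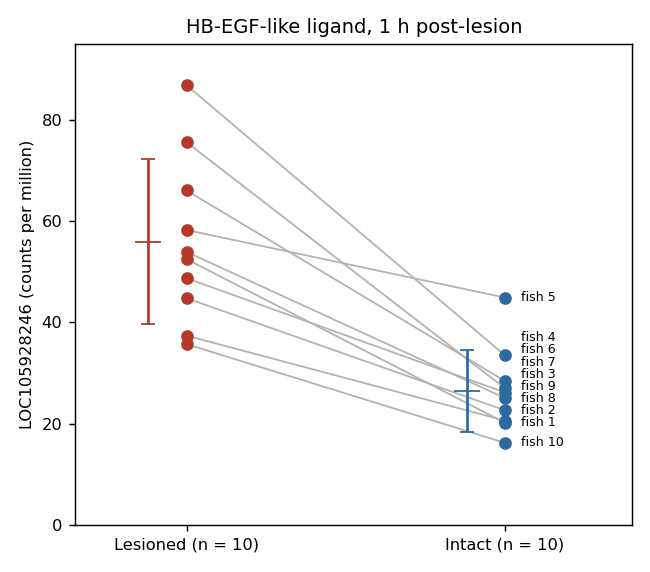
Level of LOC105928246, the HB-EGF-like ligand, in CPM on the vertical axis, in the lesioned and intact hemispheres of 10 fish; points are libraries, grey lines join the hemispheres of a fish, and the horizontal marks with bars are the mean ± SD. Every line falls towards the intact side, with the shallowest slope in fish 5 (58.3 CPM lesioned, 44.9 CPM intact).

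The size of the difference varied between fish. The within-fish log2 ratio had a median of 1.12 and a range of 0.37 to 1.48. Fish 7 had the largest ratio, with 767 counts in the lesioned and 274 counts in the intact hemisphere. Fish 5 had the smallest, with 634 and 412 counts. In fish 5 the lesioned level of 58.3 CPM lay within the range of the other lesioned hemispheres, while its intact level was the highest of the 10. With each fish left out in turn, the log2 fold change stayed between 1.03 without fish 7 and 1.17 without fish 5.

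Levels of the HB-EGF-like ligand were also compared between the hemispheres of each fish, as a description. Fish 10 was lowest in both groups, at 35.7 CPM lesioned and 16.2 CPM intact. Over the 10 fish the log2 levels of the hemispheres correlated with a Pearson r of 0.69 (two-sided permutation test, p = 0.0262, adjusted over all genes tested 0.0704) and a Spearman rho of 0.82 (permutation p = 0.0056, adjusted 0.0379). Without fish 5 and 10, which lay farthest from the median intact level, r was 0.84. Such agreement was common, since the adjusted p for r was 0.1 or less in 42.9% of genes. For LOC105928246 it is also not independent of the choice of the gene, so nothing is read from these p-values.

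The genes whose within-fish ratios followed those of LOC105928246 most closely were taken from 7954 genes with a mean of at least 10 CPM. They were LOC105921202, described as protein c-ets-2-A-like, an ETS transcription factor (Pearson r of 0.90 over 10 fish), sall1, a zinc finger transcription factor (0.88), LOC105917826, described as a resistance to inhibitors of cholinesterase protein 3-like gene (0.88), ehbp1l1 (0.87) and LOC105916408, a guanine nucleotide-binding protein subunit beta-5-like gene (0.87). They are the best of many and the values describe these fish only. Their log2 fold changes were 0.63 for LOC105921202, -0.03 for sall1, 0.04 for LOC105917826, 0.06 for ehbp1l1 and 1.03 for LOC105916408, so that only LOC105916408 came near the mean difference of LOC105928246.

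The remaining EGF-type ligands were sparsely counted. Transforming growth factor alpha (tgfa), another ligand of the EGF receptor, had 3.12, 4.01 and 5.26 CPM as its lowest, median and highest level in lesioned hemispheres, against 0.898, 4.53 and 6.89 CPM in intact hemispheres. The groups overlapped, and 3 fish were higher and 7 lower in the lesioned hemisphere. The log2 fold change was -0.02 (standard error 0.20, edgeR adjusted p = 0.994). It depended on the intact library of fish 3, which held 9 counts where the other intact hemispheres held 31 to 70. Without fish 3 the log2 fold change was -0.17 (standard error 0.13, edgeR adjusted p = 0.571).

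Betacellulin binds the EGF receptor and ErbB4. Its gene, LOC105938119, described as probetacellulin-like and named btc by RefSeq, had 4 to 10 counts in lesioned hemispheres and 1 to 15 counts in intact hemispheres, with medians of 6.5 and 8.5. It did not pass the filter on low counts, and a fit without the filter gave a log2 fold change of -0.18 (edgeR adjusted p = 0.93), an imprecise value at these counts.

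Of the 10 members that passed the filter, LOC105928246 alone was called at an adjusted p of 0.1 or less in edgeR's quasi-likelihood test. Over all genes tested 1.38% were called, and 1.28% were called and higher in the lesioned hemisphere. Since LOC105928246 was known to be called, nothing is read from its count. None of the other 9 tested members was called at 0.1 or at 0.4, by edgeR or by DESeq2, and none had an unadjusted edgeR p under 0.05. Over all genes 9.99% were called at 0.4 by edgeR and 11.7% had an unadjusted p under 0.05. Among these 9 genes, 6 log2 fold changes were above and 3 below 0, and their median was 0.03 beside -0.01 for all genes.

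**Figure D2:**
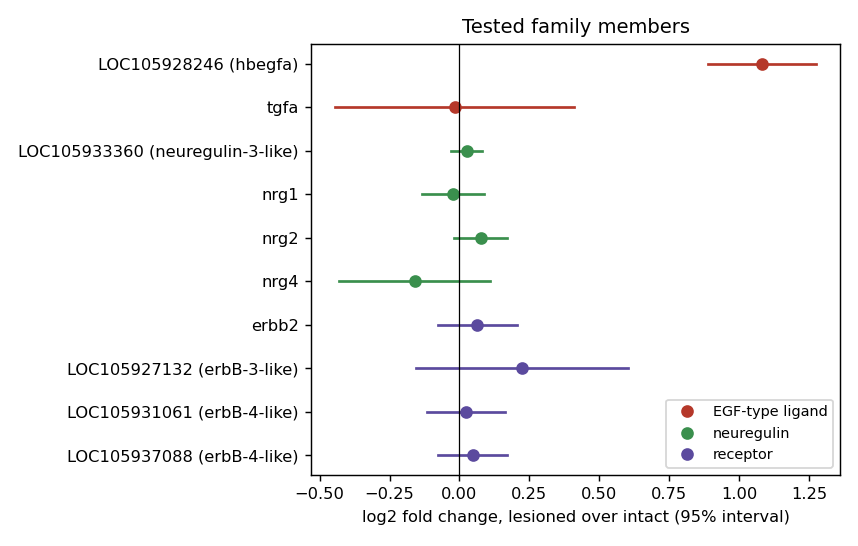
Log2 fold change of lesioned over intact hemispheres on the horizontal axis for the 10 tested members, with 95% intervals from the edgeR fit with fish as a block; colours mark EGF-type ligands, neuregulins and receptors. LOC105928246 lies at 1.08 and the other 9 members between -0.16 and 0.22, with intervals that include 0.

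None of the 4 neuregulins passed the test at 0.1 or 0.4, beside 1.38% and 9.99% of all genes. So small a group would be expected to hold no call or almost none at these shares, and nothing is read from the count. LOC105933360, described as a membrane-bound pro-neuregulin-3-like gene, codes for a neuregulin that in mammals is found mainly in the nervous system and binds ErbB4. It had 107.5, 123.6 and 137.9 CPM as its lowest, median and highest level in lesioned hemispheres, against 104.7, 119.0 and 139.4 CPM in intact hemispheres. These ranges almost coincide. Its log2 fold change was 0.03 (standard error 0.03, edgeR adjusted p = 0.767) and its 95% interval, 0.98- to 1.06-fold, was the narrowest of the family.

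Neuregulin 1 (nrg1) signals from axons to glia and muscle. It had 75.0, 84.9 and 113.5 CPM in lesioned hemispheres, against 66.1, 85.4 and 103.0 CPM in intact hemispheres. The highest value of each group came from fish 6. The log2 fold change was -0.02 (standard error 0.05, edgeR adjusted p = 0.908), with 3 fish higher and 7 lower.

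Neuregulin 2 (nrg2), which RefSeq names nrg2a, had 49.5, 54.6 and 61.9 CPM in lesioned hemispheres and 47.5, 52.9 and 55.9 CPM in intact hemispheres. Here 3 lesioned hemispheres lay above every intact one. The log2 fold change was 0.08 (standard error 0.04), the 95% interval was 0.99- to 1.13-fold and 7 of 10 fish were higher, but the difference did not pass the test (edgeR adjusted p = 0.547; exact permutation test by sign flips of the fish ratios, two-sided, p = 0.143, unadjusted). Without fish 3 the edgeR adjusted p was 0.317, in a fit that called 2066 of 10525 genes at 0.4, against 1050 of 10513 in the main fit.

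Neuregulin 4 (nrg4) had 2.42, 3.39 and 6.16 CPM in lesioned hemispheres, against 2.18, 3.50 and 8.61 CPM in intact hemispheres, and fish 5 was the highest in both groups. The log2 fold change was -0.16 (standard error 0.13, edgeR adjusted p = 0.671), with 5 fish higher and 5 lower. In the newer annotation this gene ID is a non-coding transcript whose span overlaps tmem266, a transmembrane protein gene. The strand setting of the counting is not stated, so reads from overlapping genes cannot be told apart here.

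**Figure D3:**
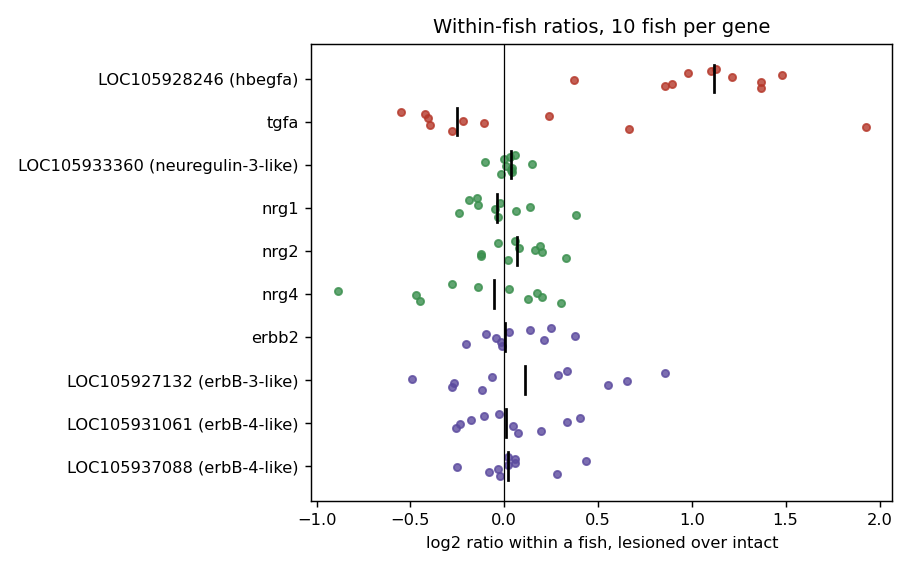
Within-fish log2 ratio of lesioned over intact hemispheres on the horizontal axis for the 10 tested members; each point is 1 fish and each black bar the median of 10 fish. All 10 points of LOC105928246 lie above 0, whereas those of every other member lie on both sides of 0.

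None of the 4 tested receptor genes was called at 0.1 or 0.4, beside 1.38% and 9.99% of all genes. At these shares a group of this size would be expected to hold no call or almost none, so nothing is read from this count. The receptor gene LOC105927131 did not pass the filter and was not tested. Within a library, the 5 receptor genes summed to 57.2 to 81.6 CPM (median 74.2) in lesioned hemispheres and to 59.7 to 89.3 CPM (median 68.8) in intact hemispheres. The gene erbb2 codes for the co-receptor that binds no ligand of its own and pairs with the other ErbB proteins. It had 8.18, 11.4 and 12.6 CPM as its lowest, median and highest level in lesioned hemispheres, against 8.09, 10.97 and 12.2 CPM in intact hemispheres. Its log2 fold change was 0.06 (standard error 0.07, edgeR adjusted p = 0.772).

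Both erbB-4-like genes, LOC105931061 and LOC105937088, share a description, and reads that match both could have been divided between them in a way that the methods do not state. ErbB4 is, in mammals, the main neuregulin receptor of neurons, and it also binds HB-EGF. LOC105931061 had 28.4, 32.3 and 36.6 CPM in lesioned hemispheres, against 25.0, 31.9 and 41.2 CPM in intact hemispheres (log2 fold change 0.02, standard error 0.07, edgeR adjusted p = 0.932). LOC105937088 had 17.9, 26.8 and 36.4 CPM in lesioned hemispheres, against 17.2, 24.7 and 38.5 CPM in intact hemispheres (log2 fold change 0.05, standard error 0.06, edgeR adjusted p = 0.818). Neither gene separated the groups.

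ErbB3 has little kinase activity of its own and acts as a neuregulin receptor with a partner, in Schwann cells and epithelia among others. Its genes here, LOC105927131 and LOC105927132, carry consecutive model numbers and the same description, and only LOC105927131 is in the newer annotation, as erbb3a. LOC105927132 had 3 to 27 counts in lesioned hemispheres (median 12) and 4 to 24 counts in intact hemispheres (median 11.5). Its log2 fold change was 0.22 (standard error 0.18, edgeR adjusted p = 0.675) and the interval, 0.90- to 1.52-fold, was the widest on the upper side among the 9 uncalled members. LOC105927131 did not pass the filter, with 3 to 33 counts (median 5.5) in lesioned and 4 to 32 counts (median 7.5) in intact hemispheres.

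The precision of these values limits what can be said of small differences. For the 9 uncalled members the upper end of the edgeR 95% interval ranged from 1.06-fold for LOC105933360 and nrg1 to 1.52-fold for LOC105927132. Its lower end ranged from 0.74-fold for tgfa and nrg4 to 0.99-fold for nrg2. DESeq2 gave larger standard errors for each of these genes, such as 0.31 against 0.18 for LOC105927132 and 0.19 against 0.13 for nrg4. The edgeR ends are therefore no firm limits on what could have been missed. The interval of LOC105928246 began at 1.85-fold, but that gene was chosen for its difference, so its interval is a description only. A missed adjusted p does not show that these genes were equal in both hemispheres. Over all genes tested, 1.06% changed in the same direction in all 10 fish, and among the 10 tested members LOC105928246 did so. As that gene was put forward for being higher in these same lesioned hemispheres, nothing is read from its direction. In 0.0761% of genes the libraries of the groups did not overlap, and no member was among them.

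Agreement between the hemispheres over the fish was described by r for the 10 tested members. Differences between members in r were not tested, and r also depends on how far levels varied between fish. The descriptions that chose the other members did not use this measure. For LOC105928246, which is counted below, it is not independent of the choice, since agreement between hemispheres makes a difference easier to find with fish as a block. The agreement was looked at after the counts had been seen. Of the 10 tested members, 5 had a correlation between hemispheres with an adjusted p of 0.1 or less, against the 42.9% of all genes given above. The count is near that share, so nothing is read from it. The median r was 0.66 for the members beside 0.59 for all genes. LOC105937088 had r = 0.85 (two-sided permutation test, p = 0.00202, adjusted over all genes 0.0131) and rho = 0.82 (permutation p = 0.00634, adjusted 0.04). Fish 3 held the most of this erbB-4-like transcript in both hemispheres, 36.4 CPM lesioned and 38.5 CPM intact, and fish 7 the least, 17.9 CPM lesioned and 17.2 CPM intact. Without these fish r was 0.65.

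LOC105931061, the other erbB-4-like gene, had r = 0.06 (permutation p = 0.87, adjusted 0.907) and rho = 0.14 (permutation p = 0.708, adjusted 0.797). The difference between the erbB-4-like genes in r was not tested. LOC105933360, the neuregulin-3-like gene, had r = 0.87 (permutation p = 0.00155, adjusted 0.0111) and rho = 0.83 (permutation p = 0.00461, adjusted 0.0337), which fell to r = 0.60 without fish 1 and 4. LOC105927132 had r = 0.86 (permutation p = 0.00163, adjusted 0.0115) and rho = 0.78 (permutation p = 0.0103, adjusted 0.0533), and r = 0.63 without fish 2 and 4. For nrg4, r = 0.70 (permutation p = 0.0244, adjusted 0.067) and rho = 0.53 (permutation p = 0.119, adjusted 0.238), and r was 0.23 without fish 1 and 5. Those fish held the lowest and the highest intact level of nrg4. Leaving out the fish farthest from the median narrows the range of levels, which can lower r by itself. Nothing is therefore read from these lower values of r. The other members had r from -0.24 in nrg2 to 0.63 in erbb2, with adjusted p of at least 0.11.

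**Figure D4:**
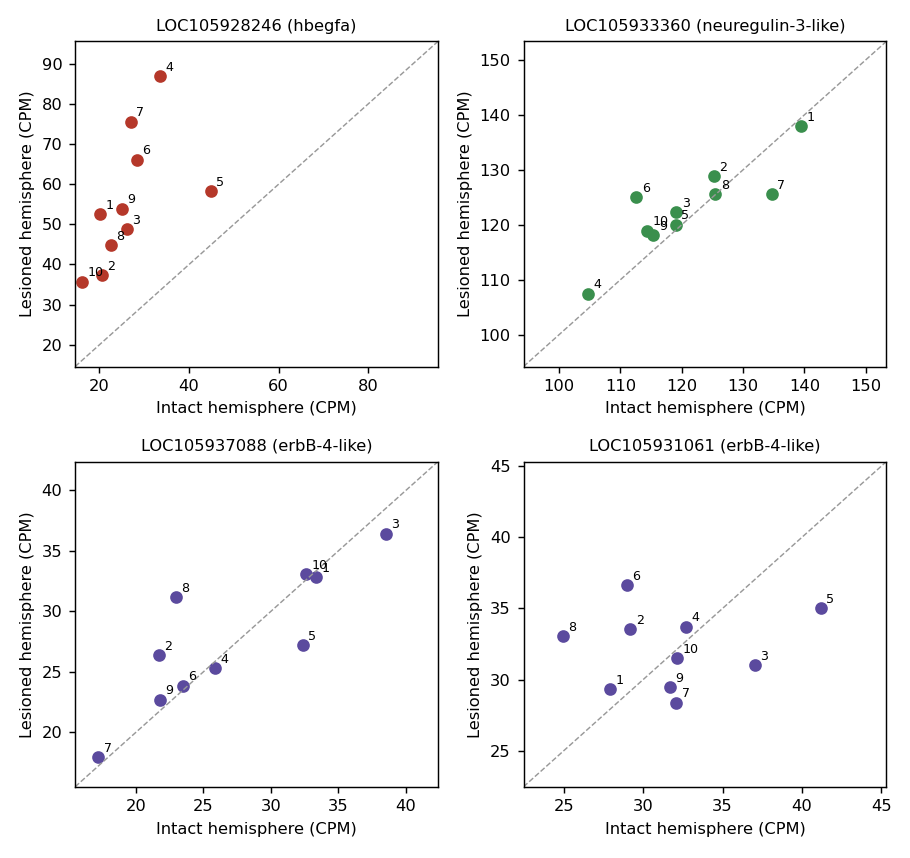
Level in the lesioned hemisphere (vertical axis) against the intact hemisphere (horizontal axis) of the same fish in CPM for 4 members; points are fish, numbered, and the dashed line marks equal levels. Points of LOC105928246 all lie above the line, those of LOC105933360 and LOC105937088 follow it (r = 0.87 and 0.85), and those of LOC105931061 form no line (r = 0.06). Differences between these genes in r were not tested.

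Genes of signalling steps around the ErbB receptors, from ligand release to feedback inhibition, were read from a list of 26 by description. The list was written after the study's own list of changed genes had been read, so that it is not independent evidence. Whether ErbB receptors act on these genes here was not tested. All 26 passed the filter. At an adjusted p of 0.1 or less 3 were higher, 0 were lower and 23 did not pass (edgeR), beside the 1.38% of all genes called and the 1.28% called and higher. The median log2 fold change was 0.0029 beside -0.01 for all genes. The called genes were all among the 10 feedback inhibitors. In contrast, 0 of 5 sheddases and their regulators, 0 of 5 genes of Ras, Raf and MEK, and 0 of 1 erbB-interacting proteins were called. Of the adaptor and phospholipase C gamma genes (gab1, gab2, plcg1, plcg2 and LOC105932869), 0 of 5 were called. None of the genes in these groups had an unadjusted p under 0.05, beside 11.7% of all genes. At the 1.38% of all genes called, groups of this size would be expected to hold no call or almost none. At the 11.7% with an unadjusted p under 0.05, they would be expected to hold few such genes. Nothing is read from either count of 0. By DESeq2, dusp1 and dusp4 were called.

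Among the feedback inhibitors, dusp1 codes for a phosphatase that switches off MAP kinases. It had 98.9, 120.7 and 162.1 CPM as its lowest, median and highest level in lesioned hemispheres, against 61.0, 75.7 and 158.7 CPM in intact hemispheres. The groups overlapped widely, with the intact hemispheres of fish 5, 9 and 2 at 158.7, 121.3 and 104.9 CPM, all above the lowest lesioned hemisphere. Fish 5 was the fish in which dusp1 was not higher, with a log2 ratio of -0.08. Over all fish the log2 fold change was 0.56 (standard error 0.07, edgeR adjusted p = 0.00104), higher in 9 of 10 fish.

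The ERK phosphatase gene dusp4 had 58.2, 88.6 and 166.7 CPM in lesioned hemispheres, against 43.8, 65.0 and 79.7 CPM in intact hemispheres, and 7 lesioned hemispheres lay above every intact one. Its log2 fold change was 0.56 (standard error 0.11, edgeR adjusted p = 0.0152), higher in 9 of 10 fish. The exception was fish 2, at -0.17. Fish 7, which had the largest ratio of LOC105928246, also had the largest of dusp4, at 1.22. Fish 5, which had the smallest ratio of LOC105928246, did not have the smallest of dusp4, at 0.57. Whether the ratios of these genes go together was not tested.

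LOC105919299, described as sprouty-related EVH1 domain-containing protein 2-like, belongs to the Spred proteins, which restrain Ras signalling. It had 38.0, 40.7 and 46.8 CPM in lesioned hemispheres, against 31.8, 36.6 and 45.0 CPM in intact hemispheres, a small difference that was found in 10 of 10 fish (log2 fold change 0.17, standard error 0.04, edgeR adjusted p = 0.0744). This call held in only 6 of 17 other fits. Without the fish block none of the 26 genes was called, and the adjusted p was 0.4 for dusp1, 0.12 for dusp4 and 0.609 for LOC105919299. Without fish 5, 5 genes were called, with spry4 (log2 fold change 0.21, adjusted p = 0.00578) and dusp7 (0.15, adjusted p = 0.0649) added. That fit called 216 of 10514 genes at 0.1, against 145 of 10513 in the main fit.

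Of the sprouty genes, which restrain receptor tyrosine kinase signalling, LOC105932547, described as protein sprouty homolog 2-like, lay in the other direction. It had 93.4, 107.4 and 138.8 CPM in lesioned hemispheres, against 97.3, 119.1 and 145.4 CPM in intact hemispheres, and 9 of 10 fish were lower. Its log2 fold change was -0.12 (standard error 0.04). LOC105932547 did not pass at 0.1 but passed at 0.4 (edgeR adjusted p = 0.211, unadjusted p = 0.00559). At 0.4 dusp7 passed as well, as higher (edgeR adjusted p = 0.163). Of all genes 9.99% passed at 0.4.

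The listed metalloproteinase genes, which are ADAM17-like or ADAM10-like, gave no call at 0.1, beside 1.38% of all genes. Nothing is read from this for so few genes. Other metalloproteinases were not examined. LOC105918680, the ADAM17-like gene, whose mammalian counterpart is the main sheddase of HB-EGF and transforming growth factor alpha, averaged 4.59 ± 2.89 CPM in lesioned and 5.09 ± 3.77 CPM in intact hemispheres (SD, n = 10; log2 fold change -0.11, standard error 0.09, edgeR adjusted p = 0.685). LOC105938547, an ADAM10-like gene, averaged 216.8 ± 10.5 CPM in lesioned and 219.6 ± 10.5 CPM in intact hemispheres (log2 fold change -0.02, standard error 0.02, edgeR adjusted p = 0.809).

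**Figure D5:**
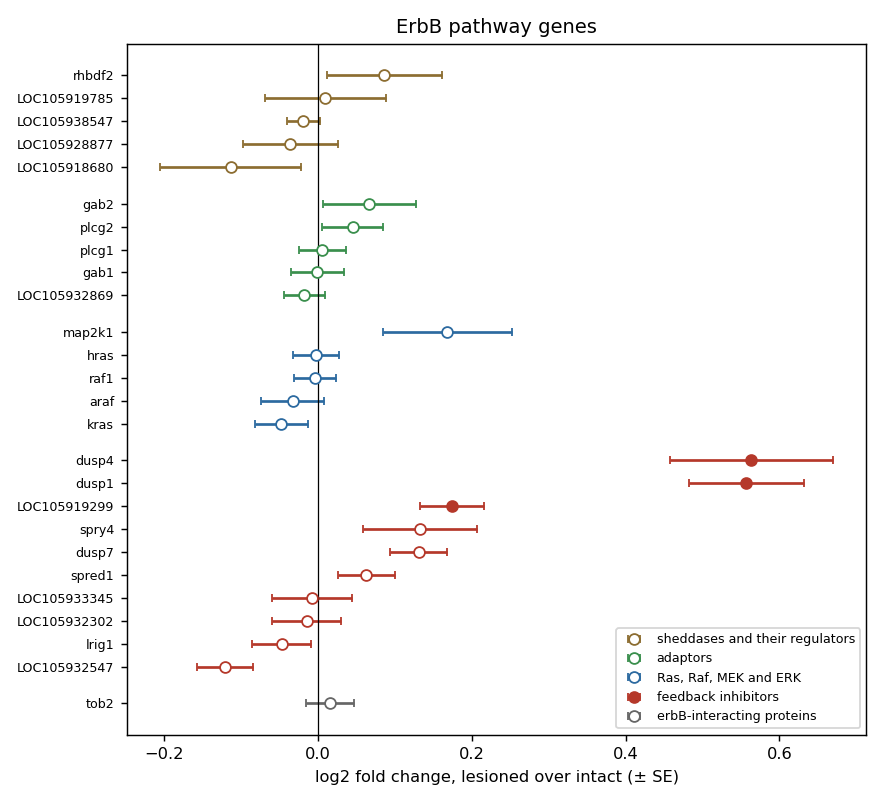
Log2 fold change of lesioned over intact hemispheres on the horizontal axis, with standard errors as bars, for 26 genes of signalling steps around the ErbB receptors, grouped by role. The group labelled adaptors also holds phospholipase C gamma genes. Filled points passed an adjusted p of 0.1 (edgeR) and open points did not. The 3 filled points, dusp4, dusp1 and LOC105919299, are feedback inhibitors, at 0.56, 0.56 and 0.17.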

How the data were processed

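RNA of 20 hemispheres was sequenced, 1 lesioned and 1 intact hemisphere from each of 10 fish. According to the study's methods and processing notes, the authors removed adapter sequence (CutAdapt 1.11), used STAR for alignment to the 3.0.2 assembly of the mummichog and took htseq counts of each gene; the strand setting and the treatment of multi-mapping reads are not given in the sources used here. The deposited counts are raw reads per gene and library. The authors' own DESeq2 comparison in the same table (mean, fold change, its error, statistic and p-values) was not used.

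Of 16264 entries, 2585 transfer RNAs (at most 0.00458% of the gene counts of a library) were left out. The filterByExpr function of edgeR kept 10513 of 13679 genes, at a minimum count of 10 and a minimum total of 15. The main test was the quasi-likelihood test of edgeR 4.0.16 (R 4.3.3) with TMM scaling, fish as a block, Benjamini-Hochberg adjustment over all genes tested and the study's cutoffs of 0.1 and 0.4. Standard errors are the fold change over the root of F. DESeq2 1.42.0, other scalings, no filter, no block, robust dispersion and each fish left out served as alternatives. Within-fish ratios are differences of log2 CPM (prior count 2), tested over 1024 sign patterns where a p is given, and correlations between hemispheres were tested with 100000 permutations. The scripts were tested on simulated data first.

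The pairing comes from the animals, each of which gave both hemispheres. Across genes, deviations from the group means had correlations of 0.386 to 0.731 within a fish and of -0.207 to 0.201 between fish. A gene at 1 CPM has about 10 counts, so low genes carry wide intervals.

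The members and lists were chosen with earlier results of these data known. Genes were named by rule: every member, the listed pathway genes called at 0.1, and the 5 genes whose within-fish ratios correlated best with those of LOC105928246. The genes LOC105918680, LOC105938547, LOC105932547, spry4, dusp7 and those next to LOC105928246 were added after their values had been seen. Of the 12 members, 11 matched the RefSeq table of the MU-UCD_Fhet_4.1 assembly by gene ID; as the authors used another assembly, no coordinates are given. Levels of different genes are not compared, since no transcript lengths were used.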

Additional observations from a re-analysis of the deposited data

Results flagged for a closer look

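Of 34 groups of 10 values searched among the 12 members, 4 held a value far from the rest. At a chance rate of 1 in 20 groups, 1.7 would. The groups were not independent, since within-fish ratios are made from the levels that were also searched. Both tgfa values below rest on the intact library of fish 3, so no excess is read from these counts. In tgfa the intact hemisphere of fish 3 lay at 0.13 on the log2 CPM scale, where the other intact hemispheres lay at 1.76 to 2.83, and the within-fish log2 ratio of fish 3 was therefore 1.93, against -0.55 to 0.66 in the other fish. In nrg1 fish 6 had a lesioned log2 CPM of 6.83, and the other lesioned hemispheres had 6.23 to 6.44; the intact hemisphere of fish 6 was the highest of its group as well, at 103.0 CPM. In LOC105927131, the erbB-3-like gene below the filter, the intact hemisphere of fish 7 lay at 1.87 on the scale of log2(CPM + 0.5), against -0.18 to 0.58 in the other intact hemispheres. That library held 32 counts of LOC105927131 and 540 of epcam, the epithelial marker. The lesioned hemisphere of fish 5 held 33 and 267. The intact hemisphere of fish 6, however, held only 10 counts of LOC105927131 with 407 of epcam. Apart from intact fish 7 and lesioned fish 5, epcam ranged from 2 to 407 counts in the other 18 libraries. The part of epithelial tissue in these values was not tested.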

How the results depend on the processing

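LOC105928246 had a log2 fold change of 1.07 to 1.08 over 7 other settings and of 1.03 to 1.17 with each fish left out. With the replicate block removed, 1 member was called at 0.1 and 1 at 0.4. The number of ErbB pathway genes called at 0.1 was then 0 in place of 3. With each fish left out in turn, 1 member was called at 0.1, between 1 and 2 members at 0.4, and 2 to 5 pathway genes at 0.1. The member called at 0.1 in all these fits was LOC105928246. As that gene was put forward for being higher in these same lesioned hemispheres, nothing is read from its staying called. The second member at 0.4 was nrg2, without fish 3, in the fit that called 2066 of 10525 genes at 0.4. The 5 pathway genes were called without fish 5, in the fit that called 216 of 10514 genes at 0.1. The cause of these shifts was not tested. Over all genes, 145 were called at 0.1 and 1050 at 0.4, whereas without the replicate block 58 and 89 were called, at 0.4 the DESeq2 test called 370 and the fit with no filter 674, and with each fish left out in turn 101 to 216 were called at 0.1 and 279 to 2066 at 0.4. The median log2 fold change of all genes was -0.01 with TMM scaling and -0.02 with upper quartile scaling or total counts. The sparsest members, LOC105938119, LOC105927131 and LOC105927132, with median counts of 5.5 to 12 per group, allow no statement on small changes. Without the filter the log2 fold change was -0.18 for LOC105938119 (edgeR adjusted p = 0.93) and -0.12 for LOC105927131 (0.961).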

Other observations

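In the newer RefSeq assembly, which is not the one used for counting, no listed gene overlaps LOC105928246. Its nearest genes in the count table were LOC105927925 (RUN and FYVE domain-containing protein 1-like; log2 fold change -0.09, edgeR adjusted p = 0.279) and hnrnph1 (0.03, adjusted p = 0.69) on one side, and rmnd5b (0.03, adjusted p = 0.738) and n4bp3 (0.47, standard error 0.13, adjusted p = 0.156, unadjusted p = 0.00297) on the other. None was called at 0.1. At 0.4, where 9.99% of all genes were called, LOC105927925 and n4bp3 were called.

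LOC105918680, the ADAM17-like gene, had 135 counts in the lesioned and 142 counts in the intact hemisphere of fish 5, whereas the libraries of the other 9 fish had 25 to 57 counts. Fish 5 was also the fish with the smallest ratio of LOC105928246, the highest intact level of LOC105928246 and the highest intact level of dusp1. Other values of fish 5 were extreme as well. Its intact library was the lowest on the first principal component, at -22.4. Its lesioned hemisphere had the highest summed skeletal muscle markers, at 116 CPM, and fish 5 was the highest in nrg4 in both groups. All these values come from 1 fish, and whether they are linked was not tested.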
